A study of Homo sapiens with 8 samples.

Results

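StringTie, the program that assembled the short reads of this study, gave identifiers starting with MSTRG to genes of its merged assembly. Of the 62727 genes in the short-read table, 453 are antisense loci: MSTRG genes on the main chromosomes that overlapped a gene of the GENCODE annotation (release 44, hg38) on the opposite strand and none on their own strand. Each reached 10 normalized counts in 3 or more of the 6 short-read libraries and spanned over 200 bases of the genome. They were divided into 158 exon-crossing loci, which shared at least 1 base with an exon of the opposite-strand gene, and 295 intron-contained loci, which lay in an intron and touched no exon. In both classes the loci within 2 kb of the annotated start of the opposite-strand gene were set apart, 84 in all. The rule used the position and the level of a locus and no difference between fractions. Before the count filter 493 loci met the rule and 40 of them were removed by it. The third-highest normalized count was 10.5 in the lowest member, MSTRG.22581, and 9.88 in the highest locus outside, MSTRG.17508.

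All RNA came from nuclei of HAP1, a near-haploid human cell line derived from a chronic myeloid leukemia and grown as an adherent culture. Nuclei from 3 independent cultures were extracted with urea and a mild detergent and centrifuged, which gave 3 chromatin libraries (the pellet) and 3 nucleoplasm libraries (the supernatant). ERCC standards, synthetic RNAs of known sequence, had been added to every fraction before extraction, ribosomal RNA was depleted, and directional libraries were read as single-end reads of 50 bp. Another 2 libraries held long reads of chromatin RNA from the same line, after a poly(A) tail had been added by enzyme. No drug, genotype or time point was compared. The values describe 1 cell line in culture.

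The sample titles gave the fraction, while another label field named chromatin also for the nucleoplasm libraries. MALAT1 and PVT1, long noncoding RNAs that stay in the nucleus, had log2 fold changes (chromatin over nucleoplasm) of 3.09 and 3.11, and the mRNAs of GAPDH and B2M had -2.35 and -2.11, the directions that the titles give. BCR and ABL1, whose fusion HAP1 carries, were both measured. Of 9 leukocyte and erythroid genes 1 passed the filter, the transcription factor gene TAL1, with means of 2812 in chromatin and 2555.5 in nucleoplasm. PTPRC, SPI1, CD33, MPO, CD34 and GATA1 were at or near 0. HBG1 and HBG2 had no values. Of 9 mitochondrial mRNAs 7 were tested, with a median log2 fold change of -1.45, and of 6 fibroblast or epithelial genes 5 were tested, with -1.46. The summed level of the mitochondrial genes ran from 68702 to 77322 normalized counts in chromatin and from 215581 to 251778 in nucleoplasm. What carry-over from the cytoplasm contributed to nucleoplasm-enriched loci was not tested.

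An antisense RNA is transcribed from the strand opposite to a gene and so reads through its exons or introns in reverse. Such RNAs can start at promoters that fire in both directions, at promoters of their own inside the gene, or upstream, where polymerase passes the end of a neighbouring gene on that strand and runs on into the next. Many are degraded by the nuclear exosome soon after synthesis, and those that last can stay at the chromatin where they were made. A locus in the opposite orientation can also be a retrocopy, a DNA copy of a spliced mRNA that was reverse transcribed and inserted into the genome, often into an intron of an unrelated gene. Retrocopies lack introns and often end in a run of A left by the poly(A) tail.

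The loci were also divided by sequence. A group of 133 loci (29.4%), called mRNA-like copies here, matched the transcript of a protein-coding gene elsewhere in the genome on the same strand at 90% identity or more over at least 50% of the locus (rounded to the whole percent). The following sequences, from the hg38 genome, show the ends of 4 copies that were chosen because a run of A followed them. Each line holds the last 20 bases of a locus followed by the next 30 bases of the genome, read 5′ to 3′ on the strand of the locus, and capitals mark runs of at least 6 A.
MSTRG.22630, copy of EEF1A1, chr3:39360178-39360227, plus strand: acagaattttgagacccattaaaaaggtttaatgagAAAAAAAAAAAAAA
MSTRG.25381, copy of H3-3A, chr4:139697601-139697650, minus strand: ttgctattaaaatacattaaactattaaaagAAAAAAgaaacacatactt
MSTRG.2930, copy of MORF4L1, chr1:220255190-220255239, plus strand: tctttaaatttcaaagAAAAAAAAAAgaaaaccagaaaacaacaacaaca
MSTRG.25620, copy of MORF4L1, chr4:173615270-173615319, minus strand: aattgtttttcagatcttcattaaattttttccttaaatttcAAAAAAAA
EEF1A1 encodes a translation elongation factor, H3-3A a histone H3 variant and MORF4L1 a chromatin protein. All 4 lines had been chosen for an A run in the 30 bases after the end of the locus. Over all copies 27.8% (37 loci) had a run of at least 6 A in the 30 bases after the end. The share was 1.83% of loci close behind a same-strand gene, 3.32% of the remaining loci and 4.32% of all tested genes on the main chromosomes.

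The bases around many of the copies showed joined exons. When 3000 bases of genome on both sides were added to each copy, the match crossed at least 1 exon junction of the mRNA in 64 of the 133 copies and every junction in 34, with up to 14 junctions in a match. The copies themselves crossed a junction in 2 cases, and the middle of the match lay in the 3′ UTR of the mRNA for 129 of them, in the 5′ UTR for 4 and in the coding part for 0. The rule left out every locus that overlapped an annotated same-strand gene, pseudogenes included. Parts of such copies that are annotated as pseudogenes could therefore not enter these counts. The genome of 65 copies carried an annotated processed or unprocessed pseudogene on the same strand within 5 kb upstream, at a median distance of 309 bases. Of these pseudogenes 48 were named after the matched gene, and all were processed except the unprocessed one before MSTRG.26646. Among the 320 loci that were no copies, 9 had such a neighbour. For 22 copies the pseudogene ended within 200 bases of the locus.

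The loci near the start of a gene had another kind of sequence. For 3 of them, 120 bases around the 5′ end of the antisense locus are given on its own strand, with every CG in capitals. These 3 were chosen after their values were seen, by the highest mean count. Candidates were called in chromatin (defined below), were no copies and began within 2 kb of the start of a protein-coding gene. Loci whose 120 bases touched an annotated UTR were passed over.
MSTRG.18083, against VSNL1, chr2:17540488-17540607, minus strand: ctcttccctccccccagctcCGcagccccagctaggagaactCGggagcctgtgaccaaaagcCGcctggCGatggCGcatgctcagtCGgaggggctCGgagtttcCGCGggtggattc
MSTRG.19379, against NR4A2, chr2:156341783-156341902, plus strand: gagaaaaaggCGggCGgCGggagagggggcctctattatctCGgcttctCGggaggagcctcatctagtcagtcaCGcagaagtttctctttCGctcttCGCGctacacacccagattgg
MSTRG.13593, against RNF227, chr17:7916048-7916167, plus strand: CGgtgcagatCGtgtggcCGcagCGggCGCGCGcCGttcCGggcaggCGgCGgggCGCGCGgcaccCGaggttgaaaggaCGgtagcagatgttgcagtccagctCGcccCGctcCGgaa
VSNL1 encodes a neuronal calcium sensor, NR4A2 a nuclear receptor and immediate early transcription factor, and RNF227 a RING finger protein. In 300 bases centred on the 5′ end, the 84 near-start loci had a median GC content of 55.5% and 13 CG dinucleotides, close to 58.3% and 16 in all tested genes. The 84 were set by the nearest base of the locus. For 58 of them the 5′ end itself lay within 2 kb of the start, so the other windows lay farther from it. The median over all 453 loci was 45.3% and 4, and over the copies 40.0% and 2. TATAAA, searched on the strand of the locus in the 100 bases before the 5′ end, was present in 3.75% of the loci and in 3.07% of all tested genes. AATAAA, the main polyadenylation signal, was present in the last 100 bases of 28.6% of copies, 11.0% of loci close behind a same-strand gene, 13.7% of the rest and 39.4% of all tested genes.

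Exon-crossing loci can run through the coding sequence of the opposite gene. The lines below give the strand of the antisense locus at an edge of a coding exon of ALKAL2, a ligand of the receptor ALK, and of TRPC5, a cation channel of neurons. Capitals mark bases that lie opposite the coding bases of the gene.
MSTRG.17956, chr2:283051-283170, plus strand: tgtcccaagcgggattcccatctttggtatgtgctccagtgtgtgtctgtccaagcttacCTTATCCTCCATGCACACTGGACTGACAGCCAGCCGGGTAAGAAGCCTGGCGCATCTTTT
MSTRG.35484, chrX:111776943-111777062, plus strand: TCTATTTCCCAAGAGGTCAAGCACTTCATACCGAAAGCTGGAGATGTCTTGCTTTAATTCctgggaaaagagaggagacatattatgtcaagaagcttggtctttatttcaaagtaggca

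The loci as a whole lay toward chromatin. Of the 453 loci, 193 (42.6%) were called in chromatin, with a limma adjusted p-value under 0.05 and more than 4-fold higher in chromatin, against 21.2% of all 26066 tested genes. In nucleoplasm 28 (6.18%) were called, against 8.47% of all tested genes. Without regard to size, all 3 chromatin libraries lay above all 3 nucleoplasm libraries for 285 loci (44.6% of all tested genes) and below them for 134 (46.0% of all tested genes), and the libraries overlapped for 34. The median log2 fold change of the loci was 1.49 (interquartile range -0.60 to 3.23), while that of all tested genes was -0.02. Of the loci, 91 reached the count minimum through the chromatin libraries alone, 83 of them called in chromatin, and 5 through nucleoplasm alone, 2 of them called there. A locus that passed in only 1 fraction had to differ. Loci named below with no nucleoplasm library at 10 counts include MSTRG.30287, MSTRG.10973, MSTRG.7460, MSTRG.19669, MSTRG.22459, MSTRG.9616 and the locus against RGS20. MSTRG.1973 had no chromatin library at that level. The class counts below include all such loci. Of the 357 that reached it in both fractions, 110 were called in chromatin and 26 in nucleoplasm, with a median of 0.66. The matching share over all tested genes was not computed. For 29 of the loci called in chromatin no nucleoplasm library held more than 3 counts before normalization, and their fold changes depend on the pseudocount.

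The counts are relative to each library, so their zero point depends on the scaling. With libraries scaled to the same ERCC total, the median of all tested genes moved by -1.31 on the log2 scale to -1.33, that of the antisense loci to 0.19, and the calls became 120 in chromatin and 109 in nucleoplasm, with 11.9% and 34.4% of all tested genes called. With the same total per library the median of all genes moved by 0.46, and the loci gave 220 and 10 calls, with 25.6% and 3.83% of all tested genes called. The distance of the antisense loci above all genes was therefore nearly the same, while the split of calls was not.

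**Figure D1:**
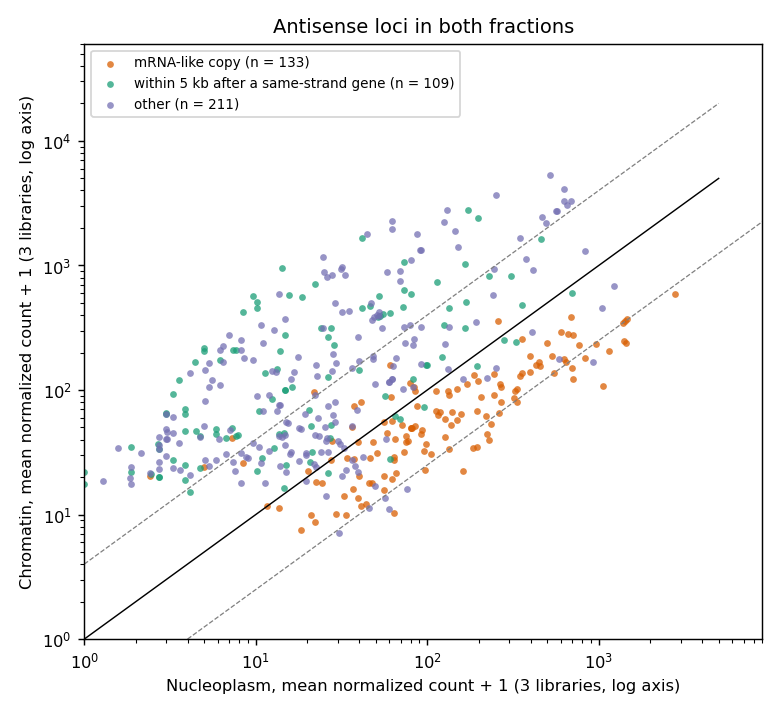
Mean normalized count + 1 of each of the 453 antisense loci in the 3 nucleoplasm libraries (horizontal, log axis) and the 3 chromatin libraries (vertical, log axis). Orange points are mRNA-like copies (n = 133), green points lie within 5 kb after a same-strand gene (n = 109) and purple points are the others (n = 211). The solid line marks equal levels and the dashed lines 4-fold differences. Most orange points lie below the solid line and most green and purple points above it.

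The loci came from 24 chromosomes and lay against 399 genes, 370 of them wholly inside the span of the opposite gene. Their median span was 657 bases (201 to 196253). The median of their mean normalized counts was 79.0 and the highest was 2929. They are not independent of each other, since 32 genes had several loci and 79 loci had another on the same strand within 10 kb. The region of IL3RA, a cytokine receptor gene shared by both sex chromosomes, is listed on each and gave a pair of loci of the same sequence (MSTRG.34579 and MSTRG.35893), so the same reads can count for both. LINC01362, a long intergenic noncoding RNA gene on chromosome 1, had 10. All 10 were called in chromatin, with log2 fold changes from 3.26 to 4.95 and mean counts of 20.6 to 833 in chromatin and 1.43 to 26.7 in nucleoplasm. LINC01362 itself had 0 counts in all 6 libraries. Neighbouring loci of this kind can be pieces of a longer transcript that the assembler did not join, which was not tested.

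**Figure D2:**
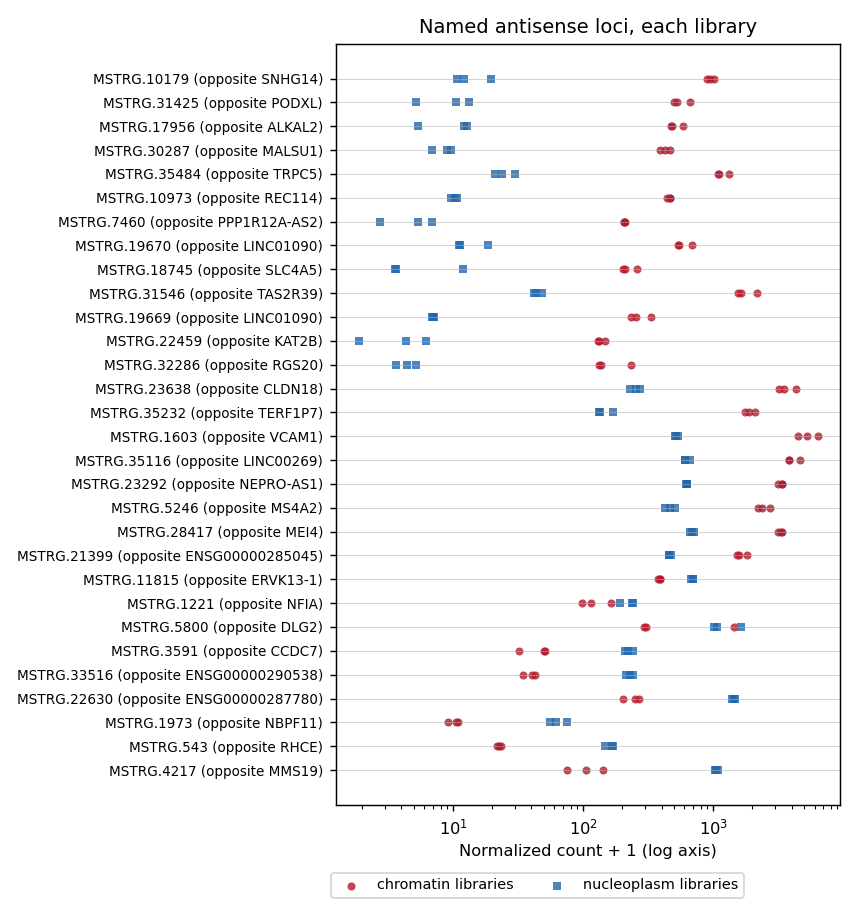
Normalized count + 1 (log axis) of 30 antisense loci in every library, sorted by log2 fold change, with the opposite-strand gene in brackets. Red circles are the 3 chromatin libraries and blue squares the 3 nucleoplasm libraries. The circles and squares do not overlap for any locus except MSTRG.5800.

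Exon-crossing loci were the longer and more chromatin-bound class. Of the 158, 94 were called in chromatin (59.5%) and 4 in nucleoplasm, with a median log2 fold change of 2.77, a median span of 3392 bases and a median mean count of 143. The locus with the greatest difference, MSTRG.31425 (chr7:131497871-131505919, plus strand), ran against PODXL, which encodes a sialomucin of the cell surface. Normalized counts of MSTRG.31425 were 499.6, 663 and 526 in chromatin and 12.3, 9.47 and 4.22 in nucleoplasm. The 3 chromatin values lay far above the 3 nucleoplasm values, for a log2 fold change of 5.96 (limma, SE 0.315, adjusted p = 2.28e-07). It began 1239 bases behind the annotated end of MKLN1 on its own strand. MSTRG.17956 (chr2:280874-286277), whose sequence against ALKAL2 is given above, began 2591 bases behind ACP1, a phosphatase gene. In the chromatin libraries MSTRG.17956 had 473, 478 and 582 normalized counts, and in the nucleoplasm libraries 4.39, 11.2 and 11.8. The fractions did not overlap, and the log2 fold change was 5.75 (limma, SE 0.312, adjusted p = 2.62e-07).

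Further loci of this class followed the same order. MSTRG.30287 (chr7:23304128-23307778, minus strand) ran against MALSU1, a mitochondrial ribosome assembly factor, from 2431 bases behind IGF2BP3, an mRNA-binding protein. The chromatin libraries gave 390.2, 461 and 425 normalized counts for MSTRG.30287 and the nucleoplasm libraries 7.90, 8.61 and 5.91. Its log2 fold change was 5.66 (limma, SE 0.157, adjusted p = 1.24e-08). MSTRG.10973 (chr15:73552869-73557048, minus strand) ran against REC114, a meiotic recombination gene that was itself listed at 0 in all libraries, from 2966 bases behind NPTN. For MSTRG.10973 the chromatin libraries held 460.0, 437 and 461 normalized counts, while the nucleoplasm libraries held 9.65, 8.61 and 9.29. The replicates of each fraction were close to each other, and the fractions differed by a log2 fold change of 5.48 (limma, SE 0.111, adjusted p = 8.67e-09). MSTRG.30287 and MSTRG.10973 passed the count filter through chromatin alone, so a difference was built into their selection. MSTRG.35484, against TRPC5, had no same-strand gene within 5 kb upstream and lay across a gene listed at 0 in every library. Counts of MSTRG.35484, normalized, were 1079.6, 1316 and 1099 on chromatin and 22.8, 19.8 and 28.7 in the nucleoplasm. Chromatin again lay above nucleoplasm in every library, at a log2 fold change of 5.57 (limma, SE 0.145, adjusted p = 1.07e-08).

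Of the 5 loci with the highest mean counts, 3 were exon-crossing. MSTRG.1603 (chr1:100702469-100739515, minus strand) spanned the whole of VCAM1, an adhesion molecule of endothelial cells, and had the highest mean count of all loci. The level of MSTRG.1603 was 4451, 6323 and 5245 normalized counts in chromatin and 503, 516 and 539 in nucleoplasm. All chromatin libraries lay above all nucleoplasm libraries, at a log2 fold change of 3.35 (limma, SE 0.113, adjusted p = 2.22e-08). VCAM1 itself had means of 273 in chromatin and 791 in nucleoplasm, which gave -1.54 on the log2 scale. MSTRG.35116 (chrX:69197283-69221510, minus strand), against the noncoding RNA gene LINC00269, and MSTRG.23638 (chr3:138005342-138026349, minus strand), against CLDN18, a tight junction protein, lay opposite genes at 0 in every library. MSTRG.35116 had normalized counts of 3825, 4670.4 and 3837 in the chromatin libraries and 659, 603 and 605 in the nucleoplasm libraries. Normalized counts of MSTRG.23638 were 3479, 4305 and 3176 in chromatin and 272, 252 and 227 in nucleoplasm. Their log2 fold changes were 2.72 and 3.85, and in neither did the fractions overlap.

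**Figure D3:**
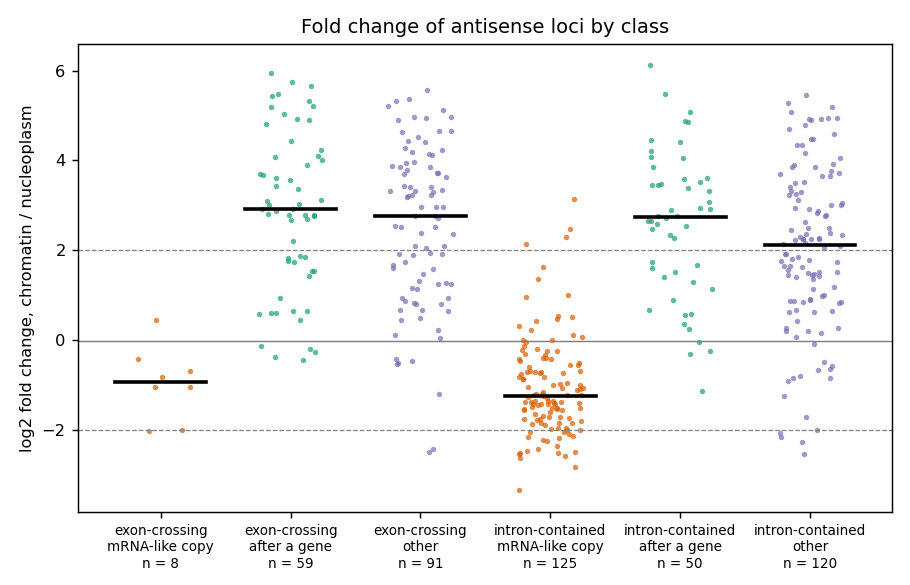
Log2 fold change (chromatin over nucleoplasm) of every antisense locus, by position (exon-crossing or intron-contained) and sequence class. Points are loci, black bars are medians, the grey line is the median of all tested genes (-0.02) and the dashed lines mark 4-fold differences. The 125 intron-contained copies have a median of -1.25, and the 170 other intron-contained loci a median of 2.27.

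Intron-contained loci were shorter and of mixed behaviour. Of the 295, 99 were called in chromatin (33.6%) and 24 in nucleoplasm (8.14%), with a median log2 fold change of 0.58, a median span of 436 bases and a median mean count of 59.8. The mRNA-like copies were mostly found here, 125 of 133, so they changed the picture of this class. Among the 170 intron-contained loci that were no copies, 95 were called in chromatin, 4 were called in nucleoplasm and the median was 2.27. For exon-crossing loci without their 8 copies, 94 of 150 were called in chromatin and 2 in nucleoplasm, with a median of 2.85. Between exon-crossing and intron-contained loci the difference in medians was thus from 2.77 to 0.58 with the copies and from 2.85 to 2.27 without them. The copy class was defined after the values had been seen, although it uses the reference sequence alone.

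The greatest difference of all loci was intron-contained. MSTRG.10179 (chr15:25320818-25331167, minus strand) lay in an intron of SNHG14, the long noncoding host RNA that is transcribed against UBE3A, the ubiquitin ligase gene of Angelman syndrome, and began 2561 bases behind the end of UBE3A. In the chromatin libraries MSTRG.10179 had 887, 948 and 1018 normalized counts, and in the nucleoplasm libraries 9.65, 11.2 and 18.6. The fractions were separated by a log2 fold change of 6.12 (limma, SE 0.21, adjusted p = 2.37e-08), and UBE3A itself had 0.17. MSTRG.7460 (chr12:79769045-79771251, minus strand) lay in PPP1R12A-AS2, 2312 bases behind PPP1R12A, a regulator of myosin phosphatase. The chromatin libraries gave 204, 209 and 206 normalized counts for MSTRG.7460 and the nucleoplasm libraries 4.39, 1.72 and 5.91. Its log2 fold change was 5.47 (limma, SE 0.317, adjusted p = 4e-07), and that of PPP1R12A was -0.34. MSTRG.7460 also passed the count filter through chromatin alone.

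Other intron-contained loci had no same-strand gene close upstream. MSTRG.19670 (chr2:187755352-187762132) and MSTRG.19669 (chr2:187750894-187754133), both on the plus strand, were neighbours in an intron of LINC01090, a noncoding RNA gene below the count filter. For MSTRG.19670 the chromatin libraries held 547, 691 and 534 normalized counts, while the nucleoplasm libraries held 17.6, 10.3 and 10.1. Counts of MSTRG.19669, normalized, were 254, 334 and 233 on chromatin and 6.14, 6.03 and 5.91 in the nucleoplasm. The fractions were apart in both, with log2 fold changes of 5.47 and 5.27, though MSTRG.19669 passed the count filter through chromatin alone. MSTRG.22459 (chr3:20149525-20151710, minus strand) lay in KAT2B, a histone acetyltransferase gene whose own level hardly differed (log2 fold change 0.29). The level of MSTRG.22459 was 147, 128 and 131 normalized counts in chromatin and 0.878, 5.17 and 3.38 in nucleoplasm. The nucleoplasm values rest on at most 6 counts a library before normalization, and MSTRG.22459 passed the count filter through chromatin alone. Its log2 fold change of 5.20 (limma, SE 0.396, adjusted p = 2.42e-06) is therefore less certain than those above.

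The 84 loci near a gene's start had a lower median than the other loci once the copies were set apart. Of the 84, 65 were exon-crossing and 19 intron-contained, 35 were called in chromatin (41.7%), 3 were called in nucleoplasm and the median log2 fold change was 1.71. The 369 loci farther away had 158 and 25 calls and a median of 1.46. Without copies, 34 of 74 near-start loci were called in chromatin, with a median of 1.86, and 155 of 246 others, with a median of 2.75. No test was made over these classes. VSNL1 and NR4A2 give examples of loci that begin close to the start of the opposite gene. MSTRG.18083 had normalized counts of 1386, 1578 and 1289.9 in the chromatin libraries and 154, 173 and 125 in the nucleoplasm libraries. Normalized counts of MSTRG.19379 were 1294, 1446 and 1264 in chromatin and 86.9, 98.1 and 88.7 in nucleoplasm. Both were separated between fractions, with log2 fold changes of 3.23 (limma, SE 0.125, adjusted p = 4.03e-08) and 3.86 (limma, SE 0.0815, adjusted p = 8.78e-09). VSNL1 itself had a log2 fold change of -1.55 and NR4A2 1.29. For MSTRG.13593, whose 5′ end lay 181 bases from the start of RNF227, the log2 fold change was 2.70 and that of RNF227 -0.28.

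Among near-start loci with the highest counts, several extended across a whole small gene and so began far from its start. MSTRG.5246 (chr11:60087258-60109258, minus strand) covered MS4A2, a subunit of the IgE receptor of mast cells, which was barely detected. In the chromatin libraries MSTRG.5246 had 2207, 2724 and 2356 normalized counts, and in the nucleoplasm libraries 508, 424 and 462. MSTRG.31546 (chr7:143169576-143187173, minus strand) covered TAS2R39, a bitter taste receptor listed at 0. The chromatin libraries gave 1625, 2172 and 1552 normalized counts for MSTRG.31546 and the nucleoplasm libraries 42.1, 47.3 and 40.6. These 5′ ends lay 20997 and 3754 bases from the start of the gene, and the log2 fold changes were 2.38 and 5.32. MSTRG.35232 (chrX:75318955-75329972, plus strand) covered the processed pseudogene TERF1P7. For MSTRG.35232 the chromatin libraries held 1876, 2080.0 and 1744 normalized counts, while the nucleoplasm libraries held 168, 134 and 130.1. MSTRG.21399 (chr22:16945383-16958965, minus strand) covered an unprocessed pseudogene, ENSG00000285045. Counts of MSTRG.21399, normalized, were 1572, 1805 and 1525 on chromatin and 458, 469 and 459 in the nucleoplasm. Both were higher in every chromatin library, at a log2 fold change of 3.72 for the former and 1.82, below the 4-fold minimum, for the latter. In the opposite direction, MSTRG.31484 (chr7:139035957-139036946, plus strand) began 85 bases from the start of ZC3HAV1L and was a near-start locus called in nucleoplasm. The level of MSTRG.31484 was 9.32, 10.8 and 9.88 normalized counts in chromatin and 52.7, 64.6 and 58.3 in nucleoplasm. Its log2 fold change was -2.43 (limma, SE 0.169, adjusted p = 1.3e-06), and 74.0% of the 300 bases around its 5′ end were G or C.

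The mRNA-like copies lay toward nucleoplasm. Of the 133, 22 were called in nucleoplasm (16.5%) and 4 in chromatin (3.01%), and their median log2 fold change was -1.22 (interquartile range -1.77 to -0.52). All 3 nucleoplasm libraries lay above all chromatin libraries for 109 copies, the reverse held for 13 and the libraries overlapped for 11. The 320 loci that were no copies had 189 calls in chromatin, 6 in nucleoplasm and a median of 2.53. Of the 28 loci called in nucleoplasm 22 were therefore copies. The copies stayed negative and the other loci positive in the median under all 3 other scalings, at -2.50 and 1.32 with the same ERCC total, -0.77 and 2.98 with the same library total, and -1.20 and 2.56 with TMM factors. Copies matched 107 genes at a median identity of 98.2%, with 39 at 99% or more. Reads of 50 bp from such a copy and from the mRNA of its matched gene cannot be told apart where the sequences are the same, so a count on a copy need not come from that place in the genome.

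The copy with the lowest log2 fold change was MSTRG.4217 (chr10:97479563-97479831, plus strand), which lay in an intron of MMS19, an iron-sulfur protein assembly gene, and matched LDHA, the lactate dehydrogenase of glycolysis, at 97.0% identity. MSTRG.4217 had normalized counts of 104, 74.5 and 141 in the chromatin libraries and 1091, 1038 and 1049 in the nucleoplasm libraries. Every nucleoplasm library was higher than every chromatin library, at a log2 fold change of -3.35 (limma, SE 0.194, adjusted p = 4.07e-07). LDHA itself had -2.17 and MMS19 -0.67. MSTRG.543 (chr1:25399406-25399965, plus strand), in RHCE, a blood group gene, matched SDHD, a subunit of succinate dehydrogenase, at 96.2%. Normalized counts of MSTRG.543 were 22.1, 21.6 and 20.9 in chromatin and 169, 165 and 147 in nucleoplasm. Its log2 fold change was -2.84 (limma, SE 0.119, adjusted p = 6e-08). MSTRG.22630 (chr3:39359950-39360197, plus strand), whose A-rich end is shown above, lay 28 bases behind the pseudogene EEF1A1P24. In the chromatin libraries MSTRG.22630 had 247, 203 and 266 normalized counts, and in the nucleoplasm libraries 1397, 1451 and 1457. The fractions were apart again, at -2.59 (limma, SE 0.0968, adjusted p = 3.37e-08).

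Other copies had the same direction. MSTRG.1973 (chr1:148146072-148146383, plus strand), in NBPF11, matched ABHD17A at 99.4%. The chromatin libraries gave 8.15, 9.61 and 9.88 normalized counts for MSTRG.1973 and the nucleoplasm libraries 54.4, 60.3 and 74.3. MSTRG.33516 (chr9:35970940-35971238, minus strand) lay 106 bases behind the pseudogene YBX1P10 and matched YBX1, an RNA-binding cold shock protein, at 99.3%. For MSTRG.33516 the chromatin libraries held 41.9, 33.6 and 39.5 normalized counts, while the nucleoplasm libraries held 242, 213 and 228. Their log2 fold changes were -2.64 and -2.54, while ABHD17A had -0.54 and YBX1 0.23. MSTRG.1973 passed the count filter through nucleoplasm alone. Copies of mRNAs for some further RNA-binding and chromatin proteins also lay toward nucleoplasm, as did most copies. Those listed next were picked after their values were seen. They leave out MSTRG.3675 and MSTRG.3676, copies of HNRNPA3, at -0.48 and -0.41, and MSTRG.22581, a copy of KDM5B, at 3.15. MSTRG.19777, in an intron of HYCC2 and a copy of the splicing regulator HNRNPA1, had -2.25 against -1.53 for HNRNPA1, MSTRG.24964, in an intron of FRAS1 and a copy of SERBP1, -1.97 against -1.38, MSTRG.2930 and MSTRG.25620 (both MORF4L1) -2.48 and -2.05 against -1.40, and MSTRG.25381 (H3-3A) -2.52 against -0.09.

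The matched gene was tested for 110 copies. Its median log2 fold change was -0.73, 82 of the 110 were negative, and 84 copies were lower than their matched gene. Pearson's r between copy and matched gene was 0.654 and Spearman's rho 0.672 over these 110 loci, which share libraries and, in part, reads. The log2 fold changes were within 1 of each other for 76. In normalized counts, without regard to length, a copy had a median of 2.30% of the level of its matched gene in nucleoplasm and 1.84% in chromatin. Copies with an annotated pseudogene upstream had a median log2 fold change of -1.46 and those without -0.87.

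**Figure D4:**
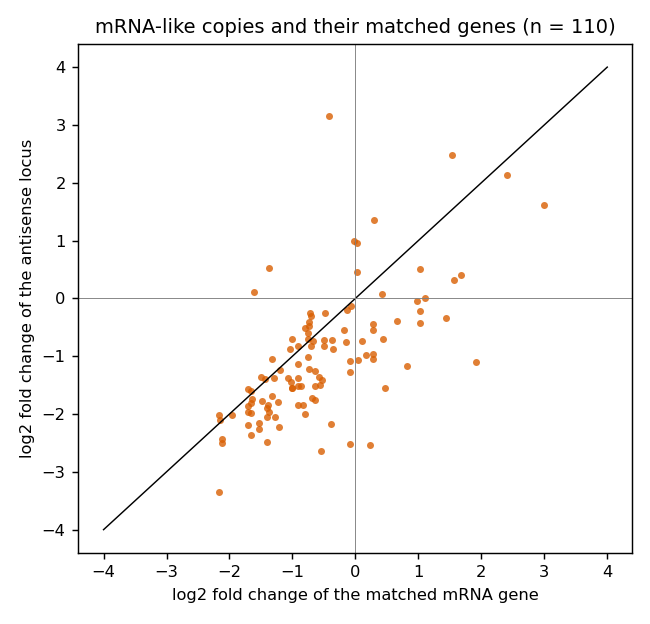
Log2 fold change (chromatin over nucleoplasm) of the gene whose mRNA is matched (horizontal) and of the mRNA-like copy (vertical) for the 110 copies with a tested matched gene. The line marks equal values. 84 points lie below the line.

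Of the copies, 4 were called in chromatin. MSTRG.18898 matched FAHD2A, which had a log2 fold change of 1.54, and MSTRG.21213 matched RIMKLB, which had 2.40, so in both the matched gene lay toward chromatin too. The copies themselves had 2.48 and 2.13. MSTRG.22581, in LRRFIP2, matched KDM5B at 91.96% over part of its length, and MSTRG.35600, in STAG2, matched ALDH2 at 92.6%. Both had low counts, with chromatin means of 19.3 and 23.03 and nucleoplasm means of 1.42 and 4.00. Whether these weaker matches are shared repeats was not tested.

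The 6 other loci called in nucleoplasm, with log2 fold changes from -2.49 to -2.01, held MSTRG.31484 and MSTRG.22037. The latter (chr22:43598312-43645857, plus strand) crossed an exon of EFCAB6 and held a stretch of 1018 bases that matched YWHAQ, a 14-3-3 protein gene, at 98.5%. Counts of MSTRG.22037, normalized, were 179, 133 and 184 on chromatin and 979, 926 and 874 in the nucleoplasm. The match covered too little of its span to make it a copy by the rule. MSTRG.1837 and MSTRG.1997, both on chromosome 1 and both of 515 bases, lay against PDE4DIPP2 and PDE4DIP, a pseudogene and gene of the same family, with log2 fold changes of -2.07 and -2.28.

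Copies were also found in the sense orientation. Of 2214 tested MSTRG loci that lay in an intron on the same strand as the gene, 112 (5.06%) were copies by the same rule. Their median log2 fold change was -1.28, with 10 called in chromatin and 23 in nucleoplasm. The 2102 others had a median of 3.83, and 86.0% were called in chromatin. A same-strand intronic locus can be a piece of the unspliced gene itself, while on the antisense strand only reads given the wrong strand would come from that gene. Among the 92 ERCC standards, 9 of which had a mean over 1000 normalized counts and the highest 17469, no gene was listed on the opposite strand. The share of reads on the wrong strand was not measured, and its part in the antisense loci was not tested.

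Loci close behind a gene formed the next group. Of the loci that were no copies, 109 began within 5 kb after the 3′ end of a gene on their own strand, at a median distance of 1739 bases (12 to 4822). Of these 72 were called in chromatin (66.1%) and 4 were lower in chromatin at an adjusted p-value under 0.05, all by less than 4-fold. Of all tested genes 45.2% were lower in chromatin at that p-value. The median log2 fold change was 2.82. The upstream gene was tested for 85 of them, with a median of 0.16, and in 75 of the 85 the locus was more chromatin-bound than the gene it followed. MSTRG.9616 (chr14:69775491-69777369, plus strand), 3486 bases behind SRSF5, a splicing factor, ran against SLC10A1, a bile acid transporter of the liver listed at 0. The level of MSTRG.9616 was 206, 172 and 277 normalized counts in chromatin and 3.51, 4.30 and 4.22 in nucleoplasm. It had a log2 fold change of 5.43, and SRSF5 had 1.49, but the locus passed the count filter through chromatin alone. The remaining 211 loci, neither copies nor close behind a gene, had 117 calls in chromatin, 6 in nucleoplasm and a median of 2.26.

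Among the remaining loci, 6 were near-identical to each other. They lay in introns of MEI4, NEPRO-AS1, SGCD, DEFB107B, TRPC6 and ABCC2 on 6 chromosomes, spanned 6047 to 7935 bases and matched each other at 97.56% to 99.01% over 5395 to 7805 bases. Proviruses of the HERV-K (HML-2) group, endogenous retroviruses that entered the primate germ line, are known at such positions. The loci were not compared with an annotation of repeats, so this identity was not tested. All 6 were called in chromatin, with log2 fold changes from 2.15 to 2.39, mean counts of 2187 to 3287 in chromatin and 491 to 686 in nucleoplasm. MSTRG.28417 (chr6:77717857-77725456, minus strand, in MEI4) and MSTRG.23292 (chr3:113025188-113032525, minus strand, in NEPRO-AS1) were among the 5 loci with the highest counts. MSTRG.28417 had normalized counts of 3134, 3333 and 3394 in the chromatin libraries and 709, 665 and 683 in the nucleoplasm libraries. Normalized counts of MSTRG.23292 were 3150.4, 3351 and 3353 in chromatin and 628, 619 and 629 in nucleoplasm. MEI4 was at or near 0 and NEPRO-AS1 had means of 45.0 and 8.88. Because the 6 sequences are so alike, their levels cannot be told apart from 1 active locus whose reads were spread over all, and with the same ERCC total the first of these fell to 0.94 and the second to 1.07, below the 4-fold minimum.

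Each locus was next set against the gene on the other strand in the same libraries. The ratio of both within a library does not depend on library scaling. A tested opposite-strand gene was present for 298 loci, in 259 cases the GENCODE gene that defined the locus and otherwise another assembled gene on that strand. The log2 fold change of the locus was greater for 179 and smaller for 69 of these, and 50 did not pass the test (limma on the log2 ratio, adjusted over 4728 pairs). Of all 4728 opposite-strand pairs 83.6% passed, so a difference as such was near the background. The median difference, locus minus gene, was 1.31. It was -1.21 for copies (10 greater, 47 smaller of 72), 2.40 for loci close behind a gene (72 and 3 of 84) and 1.76 for the rest (97 and 19 of 142).

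**Figure D5:**
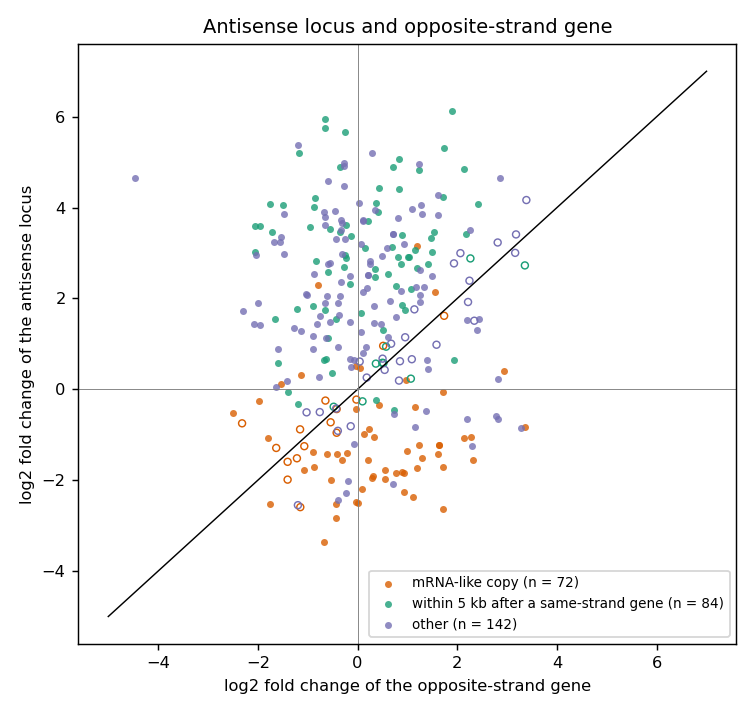
Log2 fold change (chromatin over nucleoplasm) of the opposite-strand gene (horizontal) and of the antisense locus (vertical) for 298 pairs, coloured by sequence class. Filled points passed the test of the difference (248) and hollow points did not (50). The line marks equal values. Copies lie mostly below it and the other classes mostly above.

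The opposite-strand genes themselves were spread about evenly between the fractions. Their median log2 fold change was 0.12, and 136 of 298 were negative. Of the 131 chromatin-called loci with a tested opposite gene, 114 faced a gene that was called in neither fraction, 13 a gene called in chromatin and 4 a gene called in nucleoplasm. All 16 nucleoplasm-called loci with a tested opposite gene faced a gene called in neither. As a background for these counts, 21.2% of the 26066 tested genes received the chromatin call and 8.47% the nucleoplasm call. Whether the opposite-strand genes departed from that background was not tested. Among pairs in which both had a mean of at least 20 counts, the greatest difference was that of MSTRG.31425 and PODXL. PODXL had normalized counts of 2314, 2295 and 2299.8 in chromatin and 3812, 3559 and 3463 in nucleoplasm. The locus and the gene thus went in opposite directions, with a difference of 6.61 on the log2 scale (limma, SE 0.307, adjusted p = 6.41e-07). MSTRG.18745 (chr2:74223239-74225287, plus strand), in the SLC4A5 region, faced ENSG00000264324. In the chromatin libraries MSTRG.18745 had 200.3, 209 and 259 normalized counts, and in the nucleoplasm libraries 2.63, 2.58 and 10.98. The difference to that gene was 6.57 on the log2 scale (limma, SE 0.434, adjusted p = 3.77e-06). For MSTRG.17956 and ALKAL2 it was 6.40, for MSTRG.30287 and MALSU1 5.91, and for the locus against RGS20, a regulator of G protein signalling, 6.38. Below that mean, MSTRG.6530 (chr12:9110921-9114459) faced A2M, a protease inhibitor gene. The chromatin libraries gave 266, 375 and 270.0 normalized counts for MSTRG.6530 and the nucleoplasm libraries 7.90, 18.1 and 9.29. A2M was at 0 in all chromatin libraries and had 22.8, 17.2 and 23.7 normalized counts in nucleoplasm, so the fitted difference depends on the pseudocount and is not given.

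At the other end the opposite gene lay further toward chromatin than the locus. NFIA, a transcription factor gene, faced MSTRG.1221 (chr1:61057423-61057914, minus strand). For MSTRG.1221 the chromatin libraries held 114, 97.3 and 162 normalized counts, while the nucleoplasm libraries held 234, 191 and 239.9. NFIA had normalized counts of 13242, 16591 and 12642 in chromatin and 1473, 1475 and 1416 in nucleoplasm. The difference was -4.12 on the log2 scale (limma, SE 0.267, adjusted p = 3.4e-06). ERVK13-1, a noncoding RNA gene with a log2 fold change of 3.35, faced MSTRG.11815 (chr16:2677678-2681289, plus strand), which matched PDPK1, a kinase of insulin signalling, over 85.6% of its span. Counts of MSTRG.11815, normalized, were 390.2, 388 and 378 on chromatin and 671, 694 and 694 in the nucleoplasm. The difference was -4.18 on the log2 scale (limma, SE 0.117, adjusted p = 1.19e-07), and PDPK1 itself had -0.70. NBPF11 and the ABHD17A copy MSTRG.1973 differed by -4.36, and CCDC7 and MSTRG.3591 (chr10:32510626-32511230, minus strand), a copy of the exosome cofactor gene C1D, by -3.49. NBPF11 itself had a log2 fold change of 1.72 and CCDC7 1.12, both below the 4-fold minimum. The level of MSTRG.3591 was 48.9, 31.2 and 49.4 normalized counts in chromatin and 240.5, 221 and 207 in nucleoplasm.

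A locus in DLG2 was uneven between replicates. MSTRG.5800 (chr11:85483992-85484241, plus strand) lay in an intron of this synaptic scaffold gene, and replicate 1 was the highest in both fractions. MSTRG.5800 had normalized counts of 1441, 293 and 304 in the chromatin libraries and 1627, 1005 and 1066 in the nucleoplasm libraries. Its fractions overlapped and the log2 fold change of -1.25 (limma, SE 0.556, adjusted p = 0.0603) did not pass. Without chromatin replicate 1 it was -2.01 and passed both thresholds. DLG2 did not share this pattern, with normalized counts of 1669, 1734 and 1603 in chromatin and 356, 341 and 324 in nucleoplasm.

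Antisense counts were mostly a small part of the counts of the opposite gene. The median over the 298 pairs was 9.24% in chromatin and 4.20% in nucleoplasm, in counts that take no account of length. In chromatin 57 loci had more counts than the opposite gene and 38 had under 1% of it, and in nucleoplasm 52 and 91. Exon-crossing loci that were no copies had medians of 13.1%, 14.7% and 15.0% in the 3 chromatin libraries and 3.23%, 3.22% and 3.36% in the 3 nucleoplasm libraries. For intron-contained loci without copies these were 5.05%, 5.08% and 5.00% against 1.55%, 1.26% and 1.39%. The libraries of the fractions did not overlap in either class. Copies had the reverse order, at 8.60%, 7.39% and 9.30% against 17.2%, 17.3% and 16.9%. Per base of genomic span the medians over all pairs were 732% and 306%. The span of a gene includes its introns, and neither scale gives molecules per cell.

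The loci were further grouped by the state of the opposite gene. It passed the filter for 265 loci, was below it for 145 and had no row of its own in the table for 43, and it was at 0 in every library for 90. Without copies, 116 of 197 loci against a tested gene were called in chromatin (median log2 fold change 2.52) and 59 of 91 against a gene below the filter (2.87). Against a gene with no row of its own it was 14 of 32, with a median of 1.80. Against protein-coding genes 133 of 296 loci were called in chromatin and 18 in nucleoplasm, against long noncoding RNA genes 49 and 6 of 118, and against pseudogenes 8 and 4 of 35.

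By function of the opposite gene, 10 loci lay against zinc finger genes, of which 6 were called in chromatin. The 10 included the copies MSTRG.34925 and MSTRG.3563, neither of them called there. The share called in chromatin was 42.6% of all loci and 59.1% of those that were no copies. The list was not tested against either share. ZNF385B held 2 of the 10, among them MSTRG.19612 (chr2:179567152-179582103, plus strand). Normalized counts of MSTRG.19612 were 1636, 2407 and 1885 in chromatin and 59.7, 63.7 and 59.98 in nucleoplasm. Its log2 fold change was 4.97, and that of ZNF385B -0.27. Solute carrier genes had 8 loci, 5 of them called in chromatin (62.5%), near the 59.1% of loci that were no copies. Genes with a symbol of the ribosomal protein kind (RPL or RPS and a digit) had 1, which was not called. Its opposite gene was at 0 in every library, and such symbols also belong to pseudogenes. Splicing factor, histone and HOX genes had 0. As the source of copies, splicing factor genes of the SRSF and HNRNP families gave 5, of which 2 were called in nucleoplasm. Symbols of the ribosomal protein kind gave 1, RPL7L1, which is named as only like a ribosomal protein, and its copy was called there. Of all copies 16.5% were called in nucleoplasm, and these small counts were not tested against that share.

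The machinery that removes antisense RNA from nuclei was listed too. Of 30 genes of the nuclear exosome, its adaptors and the termination machinery, 25 were tested. At the adjusted p-value alone 8 were higher and 13 lower in chromatin, with a median log2 fold change of -0.24. Of all tested genes 44.2% were higher and 45.2% lower at that p-value, and the list was not tested against them. Past the 4-fold minimum 1 was called, in nucleoplasm, where 8.47% of all tested genes were called. That gene was EXOSC5, an exosome subunit, with normalized counts of 259.7, 237 and 254 in chromatin and 1339, 1469 and 1464 in nucleoplasm. Its log2 fold change was -2.51. MTREX, the helicase of the nuclear exosome, had -0.67, and ZFC3H1, a subunit of its poly(A) tail connection, 0.89. These are levels of mRNAs in fractions of the same cells and say nothing of the activity of the proteins.

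The long reads of chromatin RNA covered part of the loci. A transcript with a TPM above 0 in both long-read libraries lay over 176 loci (38.9%) on the same strand, of which 130 also had one on the opposite strand. Another 167 had one on the opposite strand only, and 110 had none. A transcript counted when its genomic span, introns included, shared at least 1 base with the locus. How strands were given to the reads behind this table is not stated. A long read of the opposite gene placed on the wrong strand would count as a same-strand transcript of the locus, and the reverse, so the shares on either strand cannot be told apart from misplaced reads. The same-strand share was 58.9% for exon-crossing loci and 28.1% for intron-contained ones. It was 45.9% for loci behind a gene, 46.4% for the remaining loci and 21.1% for copies. Longer loci can meet more transcripts, and median spans were 3392 bases for exon-crossing loci, 436 for intron-contained ones and 363 for copies. With at least 50% of the locus covered, the 176 fell to 105. For same-strand intronic loci the share was 86.7%, but a spliced transcript of the gene around them counts there by its span alone. The same holds for opposite-strand transcripts over intron-contained loci. MSTRG.1603, against VCAM1, had a same-strand transcript at 5.74 and 2.64 TPM in the libraries. MSTRG.28417, the near-identical locus in MEI4, had one at 235 and 195 TPM. MSTRG.10179, the locus behind UBE3A with the greatest short-read difference, had none on its strand.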

How the data were processed

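For short reads, the authors aligned the reads to hg38 and the ERCC sequences with HISAT2 2.1.0, assembled and merged transcripts with StringTie, and divided gene counts by DESeq2 size factors. The deposited short-read values are this normalized signal per gene, which is not pooled over replicates. Division by the smallest value of a library returned whole numbers for 100% of values (tolerance 0.01), called recovered counts here. Their totals were 38895027 to 43804918 in chromatin and 75737601 to 79523938 in nucleoplasm. The paper took its raw counts from StringTie's estimates of abundance, so these are StringTie counts and not reads counted directly. Long reads were aligned by the authors with minimap2, and what they deposited is a TPM for each transcript, which keeps no depth. The titles of the samples gave the fraction and the replicate number, and p-values measure the spread between 3 cultures.

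Fractions were compared with limma 3.58.1 in R 4.3.3, using its trend option on log2(normalized count + 1), with Benjamini-Hochberg adjustment over 26066 genes that reached 10 normalized counts in 3 or more libraries and spanned over 200 bases. Fold changes on this scale understate changes of low genes. Calls needed an adjusted p-value under 0.05 and more than 4-fold. Pairs were tested with limma on log2 ratios. DESeq2 1.42.0 and edgeR 4.0.16 on recovered counts, other scalings, pseudocounts, filters, fold minimums, a block for the replicate number and leaving out single libraries were alternatives. The study's methods use counts, but the table holds normalized values, hence limma. The fits were tested on simulated counts.

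Positions used GENCODE release 44 (the authors used an earlier one) and bedtools 2.31.1, and sequence matches used BLAST 2.17.0. Sequences were read from the hg38 genome. The loci and lists were chosen with earlier results of these data known, and the classes of copies, loci behind a gene and near-identical loci after their values were seen. Named loci were the 5 called exon-crossing and the 5 called intron-contained loci with the greatest log2 fold change and separated libraries, the 5 called loci with the lowest, the 5 with the highest mean, the 5 pairs with the greatest difference in each direction with both means at least 20, and the 5 near-start loci with the highest mean. MSTRG loci named beyond these were chosen after their values were seen. No sequence is given for loci on chromosome 8, and some sequences of copies are not reported here.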

Additional observations from a re-analysis of the deposited data

How the results depend on the processing

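The counts of 193 loci called in chromatin and 28 in nucleoplasm became 120 and 109 with the same ERCC total, and the nucleoplasm count became 10 with the same library total, 87 with a 2-fold minimum and 6 without the mRNA-like copies. With a mean of at least 50 counts, which keeps 273 loci, 123 were called in chromatin. The intron-contained count in chromatin was 56 with the same ERCC total and 50 with that mean, and the near-start count 19 with the same ERCC total. The median log2 fold change was 0.19 with the same ERCC total, 1.94 with the same library total, 1.30 with a pseudocount of 5, 1.60 by DESeq2 and 2.53 without copies. The scalings move the zero point of all genes by construction. Pairs with both means of at least 50 gave 85 loci toward chromatin and 39 toward nucleoplasm of 134, and the median difference was 1.08 with a pseudocount of 5. The near-start class held 151 loci when the start of any transcript was used, the antisense percentages were 732 and 306 per base of span, and 105 loci had same-strand long-read transcripts over at least 50% of their length. edgeR called 197 and 24 loci, DESeq2 200 and 22.

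Leaving out each library in turn gave 191 to 195 calls in chromatin and 20 to 31 in nucleoplasm, 92 to 96 exon-crossing, 99 to 101 intron-contained and 34 to 37 near-start calls in chromatin, 172 to 179 pairs toward chromatin and 64 to 67 toward nucleoplasm, a median of 1.46 to 1.54 and a median pair difference of 1.22 to 1.36. Both fractions came from the same cultures, so the design holds pairs. The sources do not state that equal numbers mark the same culture. Same-numbered libraries of the fractions deviated together weakly (r 0.0871, 0.0533 and 0.0626), each library highest with its own number. The main fit left the pairs out. With the replicate number as a block, 193 and 30 loci were called, 180 pairs lay toward chromatin and 66 toward nucleoplasm, and the medians were 1.49 and 1.31. Of the named loci, MSTRG.35116, MSTRG.28417, MSTRG.23292 and MSTRG.5246 fell below 4-fold with the same ERCC total, MSTRG.11815, MSTRG.1221 and MSTRG.5800 passed it, and with the same library total MSTRG.3591 fell below and MSTRG.21399 passed it. The fit of pairs without a count filter was not run. With 95% identity 112 loci were copies and with 80% coverage 121, of which 21 were called in nucleoplasm under both. These copy settings, and the counts without copies, were chosen after seeing the data.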
